A study of Mus musculus with 4 samples.

Results

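The enzymes of the tricarboxylic acid cycle are described here through 9 of their transcripts, those of Cs, Idh2, Idh3a, Idh3b, Idh3g, Ogdh, Suclg1, Fh1 and Mdh2, out of 38293 genes in the table. They were taken by name, as enzymes of the cycle other than the pyruvate and succinate dehydrogenases, and each name matched 1 row. Polyadenylated RNA was sequenced from the ventricles of single mouse embryos of a C57BL/6 background at stage E12.5, littermates from litter 6 that were matched by somite count. Hif1a encodes the subunit of HIF-1, a transcription factor, that is degraded when oxygen is plentiful. Knockout embryos (cKO) had the genotype Hif1alphaflox/flox/Nkx2.5Cre/+, with both Hif1a alleles floxed and Cre recombinase at 1 Nkx2-5 allele, which is active in heart muscle precursors. Control embryos had the genotype Hif1alphaflox/flox/Nkx2.5+/+, floxed at Hif1a in the same way but without Cre. Each group held 2 embryos, numbered 2 and 3, and no group carried Cre without the floxed Hif1a. Effects of Cre, of its insertion at Nkx2-5 and of Hif1a loss therefore cannot be told apart.

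The cycle runs in the mitochondrial matrix and oxidises the acetyl group of acetyl-CoA to carbon dioxide, passing the electrons to NADH and FADH2 for the respiratory chain. Pyruvate from glycolysis enters it through pyruvate dehydrogenase, which the pyruvate dehydrogenase kinases switch off. HIF-1 is known for inducing glycolytic genes and the kinase gene Pdk1, and the heart comes to rely more on mitochondrial oxidation as it matures. The comparison asked whether transcripts of the cycle itself differed between ventricles of the cKO and control genotypes.

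Total expected counts, which are estimated read counts that need not be whole, were 9980051 and 19801300 in cKO replicates 2 and 3, against 8561687 and 8989184 in control replicates 2 and 3. Hif1a stood at 716 and 663 CPM, its share of a library's counts scaled to a fixed total, in cKO replicates 2 and 3, against 530.1 and 552 CPM in control replicates 2 and 3 (log2 fold change 0.35 ± 0.09, adjusted p = 0.317). Counts per gene hold reads from kept and deleted exons together, so they do not check the deletion. Nkx2-5, which carries the Cre, stood at 44.3 and 42.1 CPM in cKO, against 55.9 and 65 CPM in control (-0.49 ± 0.10, adjusted p = 0.153). Replicate 3 of cKO was the only male library, with Xist at 2.11 CPM in it and at 1754 or more in each of the other 3. When cKO replicate 2 is left out, sex and genotype therefore cannot be told apart. Over all 13711 genes tested, edgeR's quasi-likelihood test with Benjamini-Hochberg adjustment called 70 at the threshold of 0.05, or 0.511%, of which 20 were higher and 50 lower in cKO. Leaving out cKO replicate 2 gave 141 calls and leaving out control replicate 3 gave 39. Every fold change below is cKO over control, on a log2 scale unless given in percent.

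None of the 9 cycle enzymes passed the test, against 0.511% of all genes. The smallest adjusted p was 0.614, for Idh3b, and 1 of the 9 had an unadjusted p under 0.05, against 6.97% of all genes; DESeq2 and limma-voom called none of them either. A positive log2 fold change was found for 8 members and a negative one for Ogdh, while 49.9% of all genes were positive. The median of the 9 was 0.14, beside -0.00031 for all genes. It came to 0.22 when control replicate 2 was left out and to 0.059 when control replicate 3 was. Without cKO replicate 2 it was 0.104, and without cKO replicate 3 it was 0.185. Its size therefore changed with each library left out, most with the controls. The summed level of the 9 was 4201 and 4017 CPM in cKO replicates 2 and 3, against 3989 and 3863 CPM in control replicates 2 and 3. The sum was higher in both cKO libraries than in either control, by a narrow margin for cKO replicate 3 over control replicate 2. Its largest part in each library was Idh2, whose groups overlapped. In bulk RNA, more cells rich in these transcripts and more transcript per cell cannot be told apart.

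The members held between 1276 and 21546 counts in a library. The 95% interval of the log2 fold change lay within 1.5-fold in either direction for all 9, as it did for 66.9% of all genes. The outermost bounds were 0.41 for Idh3b and -0.50 for Ogdh. Levels in the cKO and control libraries did not overlap for 6 of the 9, namely Idh3b, Idh3g, Suclg1, Fh1 and Mdh2, which were higher in cKO, and Ogdh, which was lower. Among all genes 38.2% did not overlap, 19.4% higher and 18.8% lower. The difference between the groups was larger than the difference between replicates of either group for 4 of the 9, and for 24.3% of all genes.

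**Figure D1:**
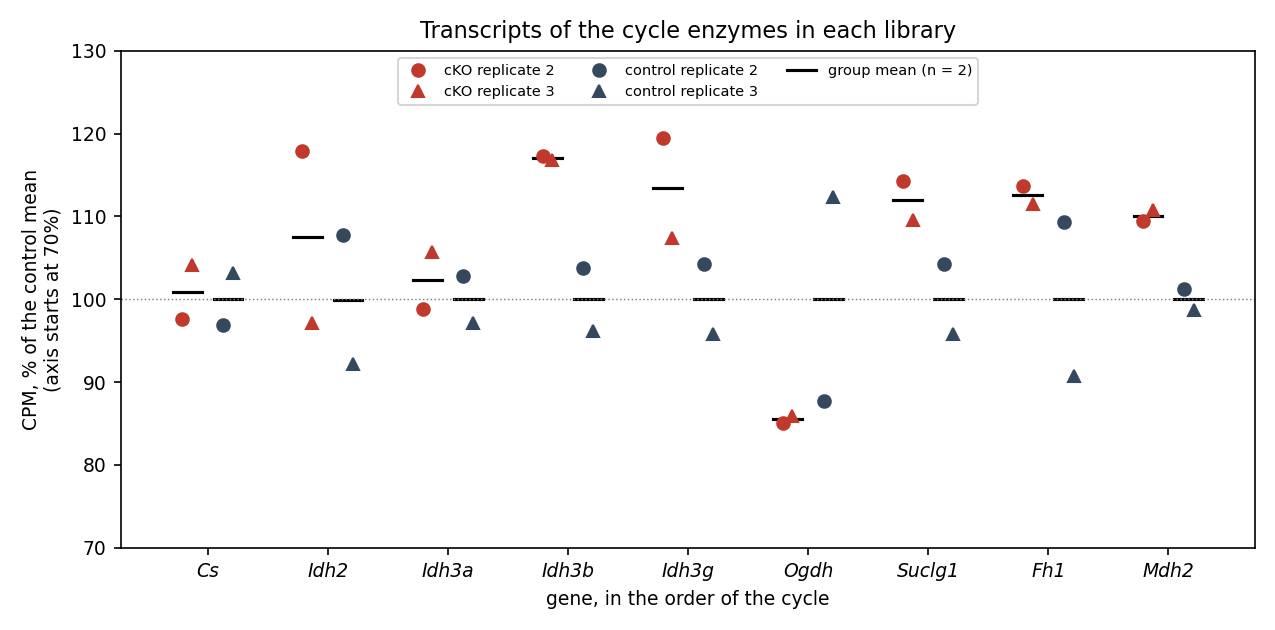
Level of each cycle enzyme in each library, as a percentage of the control mean of that gene (vertical axis, which starts at 70%), with cKO in red to the left of control in dark blue and bars at the group means of 2 libraries. Idh3b, Idh3g, Suclg1, Fh1 and Mdh2 sit higher in both cKO libraries, and control replicate 3 stands apart for Ogdh and Fh1. The cKO libraries lie close together for Idh3b, and both groups are tight for Mdh2.

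The 250 bases upstream of the start of transcription are shown for 2 cycle enzymes and for Ldha, which makes lactate and fell in cKO, because HIF-1 binds a short core that a script could look for there. The core was searched as ACGTG or GCGTG on both strands, and matches may overlap, as in the palindrome CACGTG, which counts as 2. Capitals mark the matches. RefSeq sequences on GRCm38.p6 were found for 8 of the 9 members, and those printed here overlap no annotated exon. They are chr10:128337477-128337726 on the plus strand for Cs, chr1:175625636-175625885 on the minus strand for Fh1 and chr7:46845554-46845803 on the plus strand for Ldha, each read 5′ to 3′ along its gene.
Cs: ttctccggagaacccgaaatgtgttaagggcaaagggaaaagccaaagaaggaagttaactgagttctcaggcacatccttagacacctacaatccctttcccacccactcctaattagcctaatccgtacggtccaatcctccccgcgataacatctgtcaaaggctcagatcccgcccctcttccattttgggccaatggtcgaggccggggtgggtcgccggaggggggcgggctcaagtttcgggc
Fh1: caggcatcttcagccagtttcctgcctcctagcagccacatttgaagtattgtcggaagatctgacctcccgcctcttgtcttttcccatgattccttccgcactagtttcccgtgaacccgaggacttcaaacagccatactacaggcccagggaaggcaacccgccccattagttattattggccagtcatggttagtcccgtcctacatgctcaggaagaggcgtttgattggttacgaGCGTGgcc
Ldha: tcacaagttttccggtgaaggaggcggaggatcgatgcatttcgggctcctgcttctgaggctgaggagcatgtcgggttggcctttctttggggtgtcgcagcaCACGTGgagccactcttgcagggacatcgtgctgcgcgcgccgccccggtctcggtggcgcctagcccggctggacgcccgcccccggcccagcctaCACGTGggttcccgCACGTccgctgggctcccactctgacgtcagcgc
Cs had no match, Fh1 had 1 and Ldha had 5. Of the 8 members, each counted by 1 window, 6 held at least 1 match. Of all 32851 promoters of this length 38.6% held at least 1 match and 16.7% held 2 or more. Those promoters include several starts of some genes and were not matched to the members for base content. The windows of 6 of the 8 overlap annotated exons, 5 of them among those with a match, and for a gene with several RefSeq starts, such as Ogdh, the one nearest the annotated gene start was taken. Those with a match were Idh2 with 1, Mdh2 with 1, Fh1 with 1, Idh3g with 2, Ogdh with 3 and Suclg1 with 3, while Cs and Idh3b had none. Pdk1, which was looked up beside the members, had 1 match. Whether matches bear on the levels was not tested. A match is only a run of letters, and the search was added after the levels had been seen.

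Cs (ENSMUSG00000005683, GRCm38 chromosome 10, 128337734 to 128362479, plus strand) encodes citrate synthase, which joins acetyl-CoA to oxaloacetate at the entry of the cycle. It stood at 719 and 767 CPM in cKO replicates 2 and 3, against 713 and 760 CPM in control replicates 2 and 3. Replicate 3 was the higher one in each group, and the groups overlapped. The log2 fold change was 0.01 ± 0.09 (SE; edgeR adjusted p = 0.984), with a 95% interval from -0.19 to 0.22, that is from 12.4% lower to 16.2% higher. Its sign turned when cKO replicate 3 or control replicate 2 was left out (-0.036 and -0.032).

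Isocitrate is oxidised to 2-oxoglutarate by enzymes of separate kinds. Idh2 (ENSMUSG00000030541, chromosome 7, 80094846 to 80115392, minus strand) encodes the mitochondrial form that makes NADPH. It had 1313 and 1082 CPM in cKO replicates 2 and 3, against 1200 and 1027 CPM in control replicates 2 and 3. Replicate 2 was the higher one in each group, and the groups overlapped. The difference between replicates, 0.28 in cKO and 0.22 in control on the log2 scale, was larger than the log2 fold change of 0.11 ± 0.12 (adjusted p = 0.896, 95% interval -0.18 to 0.39). The sign turned without cKO replicate 2 (-0.04) and without control replicate 3 (-0.0021).

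The NAD-linked isocitrate dehydrogenase is built of a catalytic alpha subunit, from Idh3a, and the beta and gamma subunits of Idh3b and Idh3g, which regulate it. Idh3a (ENSMUSG00000032279, chromosome 9, 54586334 to 54604661, plus strand) had 356 and 381 CPM in cKO replicates 2 and 3, against 370.2 and 349.8 CPM in control replicates 2 and 3, with overlapping groups. Its log2 fold change was 0.03 ± 0.08 (adjusted p = 0.956, interval -0.16 to 0.23). It turned to -0.017 without cKO replicate 3 and to -0.0071 without control replicate 3.

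Idh3b (ENSMUSG00000027406, chromosome 2, 130279309 to 130284547, minus strand) had 248 and 247 CPM in cKO replicates 2 and 3, against 219 and 203 CPM in control replicates 2 and 3. The cKO libraries were nearly equal and both lay above the controls. The log2 fold change of 0.23 ± 0.08, a level 17.1% higher, had an unadjusted p of 0.0216 and an adjusted p of 0.614 in edgeR's test. Its 95% interval ran from 0.04 to 0.41, and leaving out each library in turn gave 0.18 to 0.28. Idh3b shares 5 exon bases with Nop56 on the opposite strand, and the library kit does not mark strand. Reads were 75 bases long, so a read over that stretch also covers bases outside it. No other member shared exon bases with a gene of the table.

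Idh3g (ENSMUSG00000002010, chromosome X, 73778963 to 73786897, minus strand) had 224 and 201 CPM in cKO replicates 2 and 3, against 195 and 179 CPM in control replicates 2 and 3. The groups did not overlap, and the male library, cKO replicate 3, was the lower of its pair. The log2 fold change was 0.18 ± 0.09 (adjusted p = 0.737, interval -0.03 to 0.39), with 0.10 to 0.26 as each library was left out. The part of sex in the level of this X-linked gene was not tested.

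Ratios between the subunits within a library do not depend on how libraries are scaled. The ratio of Idh3b to Idh3a counts was 0.697 and 0.649 in cKO replicates 2 and 3, against 0.593 and 0.581 in control replicates 2 and 3. The ratio of Idh3g to Idh3a was 0.628 and 0.528 in cKO, against 0.527 and 0.512 in control, so its groups were apart by a narrow margin. The ratio of Idh3g to Idh3b overlapped, with 0.901 and 0.813 in cKO and 0.888 and 0.881 in control. For the first pair of ratios the exact permutation test (two-sided) gave p = 0.333, the smallest that 2 embryos against 2 allow, and 0.555 after adjustment over the 10 ratios computed. These pairs were chosen after the levels had been seen.

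**Figure D2:**
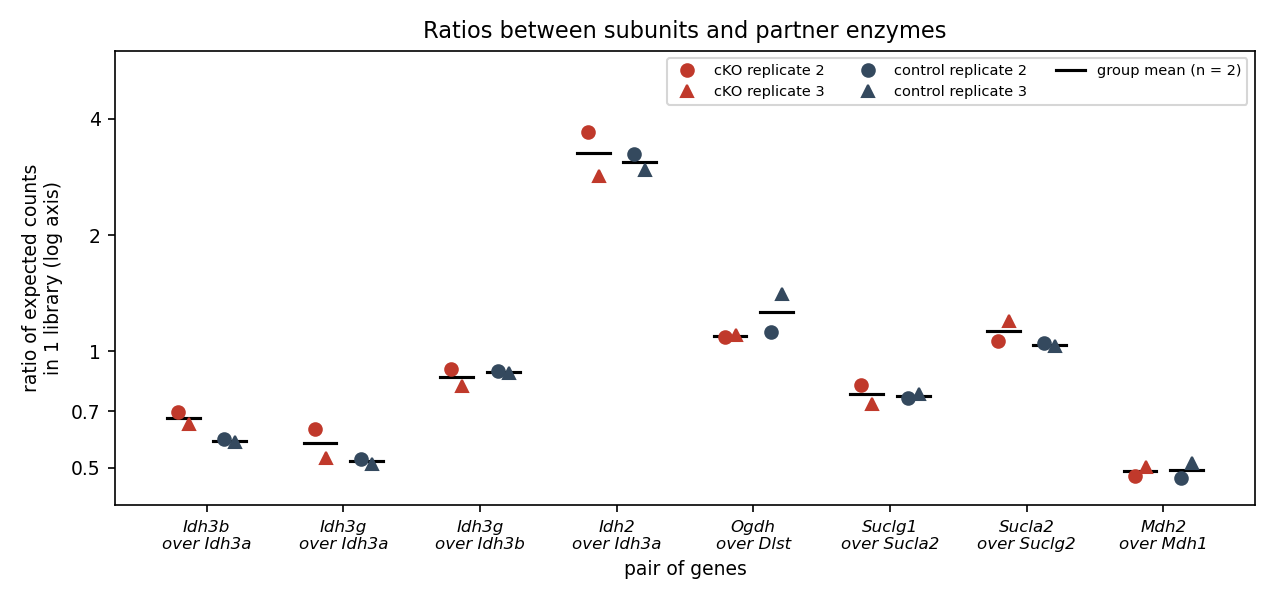
Ratio of expected counts between pairs of genes within each library (log axis), cKO in red to the left of control in dark blue, with bars at the means of 2 libraries. Idh3b over Idh3a and Idh3g over Idh3a lie higher in cKO, Ogdh over Dlst lies lower in cKO through control replicate 3, and Idh2 over Idh3a and Mdh2 over Mdh1 overlap.

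Ogdh (ENSMUSG00000020456, chromosome 11, 6291633 to 6356642, plus strand) encodes the decarboxylating subunit of the 2-oxoglutarate dehydrogenase complex, which makes succinyl-CoA. It had 410.1 and 414 CPM in cKO replicates 2 and 3, against 423 and 541 CPM in control replicates 2 and 3. Both cKO libraries were below the controls, but only control replicate 3 stood well above the rest. The log2 fold change was -0.23 ± 0.12 (adjusted p = 0.749, interval -0.50 to 0.05), smaller than the difference of 0.36 between the controls. With control replicate 3 left out it was -0.036, and with control replicate 2 left out -0.39 (adjusted p = 0.191).

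Its partners in the complex are the succinyltransferase of Dlst and the dehydrogenase of Dld, which other complexes use too. Dlst had 375 and 376 CPM in cKO replicates 2 and 3, against 376 and 384 CPM in control replicates 2 and 3, and Dld had 312 and 328 CPM in cKO, against 302 and 283 CPM in control. Dlst lay within a narrow band in all 4 libraries, and Dld was higher in both cKO libraries, with log2 fold changes of -0.02 ± 0.08 and 0.13 ± 0.08 (adjusted p = 0.972 and 0.788). The ratio of Ogdh to Dlst was 1.09 and 1.1 in cKO, against 1.12 and 1.41 in control.

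Suclg1 (ENSMUSG00000052738, chromosome 6, 73248382 to 73276911, plus strand) encodes the alpha subunit of succinyl-CoA ligase, the step that makes ATP or GTP directly. It had 168 and 161 CPM in cKO replicates 2 and 3, against 153 and 141 CPM in control replicates 2 and 3. The groups did not overlap, with a log2 fold change of 0.16 ± 0.08 (adjusted p = 0.746, interval -0.03 to 0.36). Leaving out control replicate 3 gave 0.10, and leaving out control replicate 2 gave 0.22. Its partner subunits are Sucla2, for ADP, and Suclg2, for GDP. Sucla2 had a log2 fold change of 0.15 ± 0.09 and Suclg2 of 0.04 ± 0.08 (adjusted p = 0.765 and 0.950), and the ratio of Suclg1 to Sucla2 was 0.816 and 0.73 in cKO, against 0.759 and 0.775 in control.

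Fh1 (ENSMUSG00000026526, chromosome 1, 175600374 to 175625635, minus strand) encodes fumarate hydratase, which turns fumarate into malate. It had 256 and 251 CPM in cKO replicates 2 and 3, against 246 and 204 CPM in control replicates 2 and 3. Control replicate 3 was the low one, and control replicate 2 was close to the cKO libraries. The log2 fold change was 0.17 ± 0.10 (adjusted p = 0.768, interval -0.06 to 0.40); leaving out control replicate 2 gave 0.31 and leaving out control replicate 3 gave 0.044.

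Mdh2 (ENSMUSG00000019179, chromosome 5, 135778480 to 135790398, plus strand) encodes mitochondrial malate dehydrogenase, which closes the cycle by making oxaloacetate. It had 507 and 513 CPM in cKO replicates 2 and 3, against 469 and 457 CPM in control replicates 2 and 3. Both groups were tight and apart, and the log2 fold change of 0.14 ± 0.08, a level 10.1% higher, was larger than the difference between replicates (0.018 in cKO and 0.038 in control). It did not pass (adjusted p = 0.768, interval -0.05 to 0.32), and ran from 0.12 to 0.16 over all the settings tried. The ratio of Mdh2 to the cytosolic Mdh1 was 0.474 and 0.503 in cKO, against 0.469 and 0.514 in control, and the groups overlapped.

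Levels of different genes were compared as CPM per kilobase of merged exons. Idh2 was the highest, with 463 ± 63.1 in cKO and 430.3 ± 47.2 in control (SD, n = 2 each). Mdh2 followed with 143 ± 1.25 in cKO and 130.1 ± 2.39 in control, and Cs had 129 ± 5.92 in cKO and 127 ± 5.64 in control. Those 2 were neighbours whose libraries overlapped in range. Below them came Ogdh, Idh3g, Idh3a, Fh1 and Idh3b, between 59.4 and 99.2 over all 4 libraries, and each overlapped the next in that order. Suclg1 was the lowest, with 35.6 ± 1.06 in cKO and 31.8 ± 1.9 in control. The highest member stood 13.2 times above the lowest; with the length of the longest coding transcript instead, Fh1 was lowest and the ratio was 7.29.

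**Figure D3:**
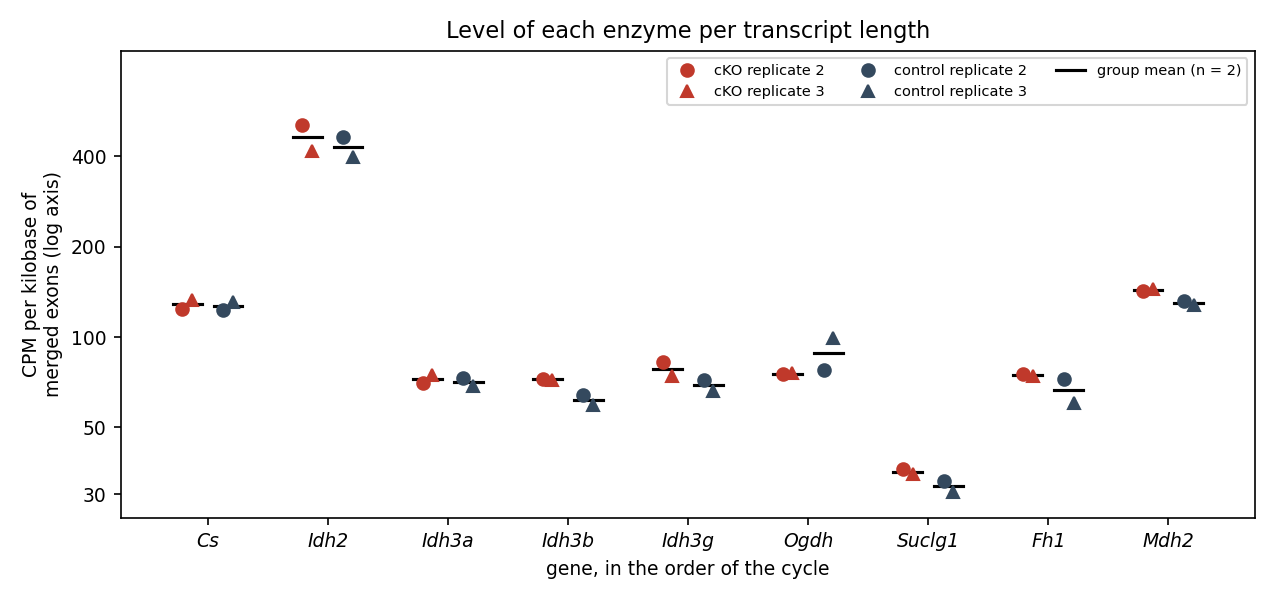
CPM per kilobase of merged exons (log axis) for each cycle enzyme in each library, cKO in red to the left of control in dark blue, with bars at the means of 2 libraries. Idh2 is the highest and Suclg1 the lowest, and the middle genes overlap their neighbours.

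Other genes of the cycle were read from a list of 12. None of them passed edgeR's test (0.511% of all genes did), 10 had positive log2 fold changes (49.9% of all genes did), and the median was 0.12. Sdhb, the iron-sulfur subunit of succinate dehydrogenase, had 269 and 266 CPM in cKO replicates 2 and 3, against 236 and 216 CPM in control replicates 2 and 3, with 0.24 ± 0.08 (adjusted p = 0.582). The other subunits of that enzyme had 0.06 (Sdha), 0.07 (Sdhc) and 0.12 (Sdhd). Aco1, Idh1 and Mdh1, the cytosolic counterparts, had -0.0013, 0.11 and 0.15, and Ogdhl, a relative of Ogdh, had 0.15.

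Glycolysis supplies the pyruvate that the cycle burns. Of 20 genes of glycolysis and of glucose and lactate transport 14 fell, none rose and 6 did not pass, with a median of -0.85, while 0.365% of all genes fell. That count was 8 when either control was left out. The 4 with the smallest p were Pfkl, a phosphofructokinase, Ldha, the lactate exporter Slc16a3 and Pgk1, a phosphoglycerate kinase. Ldha had 395 and 433 CPM in cKO replicates 2 and 3, against 1248 and 1226 CPM in control replicates 2 and 3 (log2 fold change -1.58 ± 0.09, adjusted p = 0.000161). Pfkl had a log2 fold change of -1.63 ± 0.08, Slc16a3 of -1.98 ± 0.14 and Pgk1 of -1.16 ± 0.09 (adjusted p = 6.39e-05, 0.000635 and 0.00128), and in each of the 4 both cKO libraries were below both controls. Within a library the count of Cs was 1.82 and 1.77 times that of Ldha in cKO, against 0.572 and 0.619 times in control. Exact permutation (two-sided) gave p = 0.333, the smallest possible here, and 0.555 after adjustment over the 10 ratios. Any ratio whose groups lie apart gets 0.333, and this pair was chosen after the levels had been seen.

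**Figure D4:**
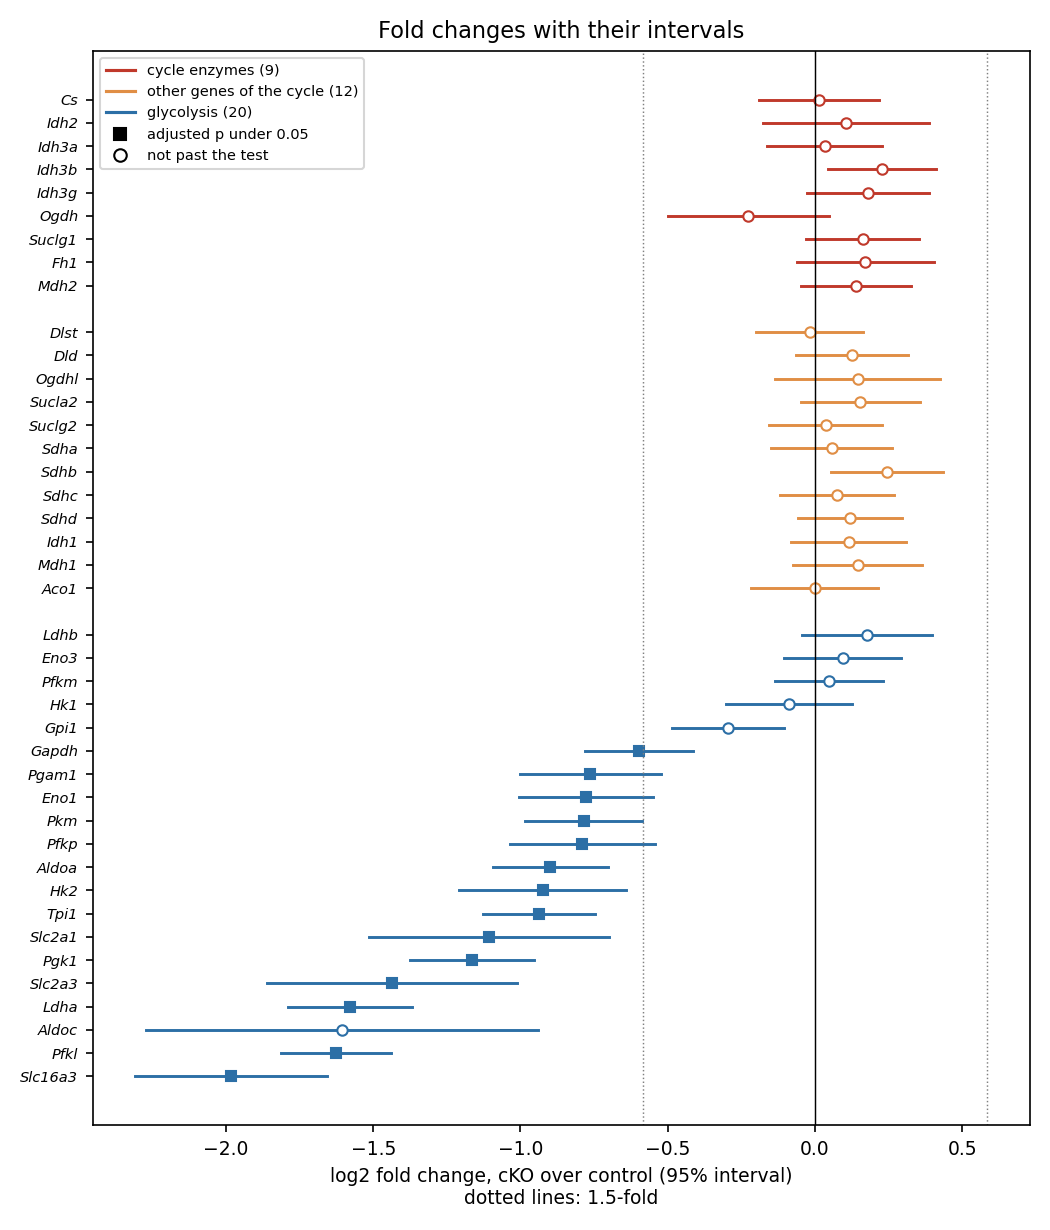
Log2 fold change of cKO over control with its 95% interval for the 9 cycle enzymes, 12 other genes of the cycle and 20 glycolytic genes; filled squares passed edgeR's test and open circles did not, and dotted lines mark 1.5-fold. All intervals of the cycle enzymes lie between the dotted lines, while 14 glycolytic genes passed the test on the left.

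At the entry from pyruvate 1 of 13 genes fell, none rose and 12 did not pass, with a median of 0.05. Among all genes 0.511% passed, 0.365% fell, and 49.9% had positive log2 fold changes. The gene that fell was Pdk1, with 64.6 and 59.7 CPM in cKO replicates 2 and 3, against 253 and 260.2 CPM in control replicates 2 and 3 (log2 fold change -2.05 ± 0.09, adjusted p = 2.65e-05). None of 17 genes that feed or drain the cycle or carry its intermediates passed, with 8 positive and 9 negative and a median of -0.0022; Pck2, a mitochondrial enzyme that draws on oxaloacetate, had the smallest p (0.37 ± 0.11, adjusted p = 0.520). None of 10 genes of enzymes linked to 2-oxoglutarate or fumarate passed edgeR's test (median 0.11). Bcat1, an aminotransferase for branched-chain amino acids, had 1.2 ± 0.29 (adjusted p = 0.249). Idh1 is on this list and also among the other genes of the cycle above.

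None of 10 genes of other mitochondrial proteins passed, 9 of them positive with a median of 0.12, and Clpp, a matrix protease, had the smallest p (0.33 ± 0.10, adjusted p = 0.529). That median was close to the 0.14 of the cycle enzymes. Among all genes 0.511% passed and 49.9% were positive. None of 9 regulators of mitochondrial genes passed, 7 of them negative with a median of -0.11; Nrf1, a factor for nuclear genes of the respiratory chain, had -0.11 ± 0.09 (adjusted p = 0.837).

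The profile most like the mean of the 9, by root mean square distance of centred log2 CPM over the 4 libraries, belonged to Tpd52l2 (0.0042), Naa10 (0.005), Scrn3 (0.0065), Srpk2 (0.0065) and Trmt10b (0.0065). The 5 were picked as the nearest among genes outside the lists, with a mean of at least 5 CPM and no predicted-gene name. Their small distances come from that choice and say nothing about the members. The 9 members lay from 0.031 for Mdh2 to 0.21 for Ogdh from their own mean.

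Heart muscle markers were present at high levels, with the 8 listed genes summing to 27810 and 26190 CPM in cKO, against 28660 and 27600 CPM in control, and none passed the test. The 7 endothelial and endocardial markers were all negative with a median of -0.21, none past the test, while 49.9% of all genes were positive. These 7 markers summed to 1280 and 1148 CPM in cKO, against 1365 and 1417 CPM in control. Of 6 epicardial markers only Krt19 fell (edgeR adjusted p = 0.0347), while 0.365% of all genes fell. The epicardial list summed to 325 and 242 CPM in cKO, against 296 and 338 CPM in control. The 7 erythroid markers summed to 2299 and 5490 CPM in cKO replicates 2 and 3, against 4408 and 5001 CPM in control, which set cKO replicate 2 apart from the other 3 libraries. Smooth muscle markers summed to 617 and 724 CPM in cKO, against 1003 and 1015 CPM in control, with no member past the test. Cushion and fibroblast markers (844 and 1124 CPM in cKO, 824 and 1155 CPM in control), immune markers (28.4 and 31 CPM in cKO, 26.4 and 58 CPM in control) and atrial markers (2550 and 2323 CPM in cKO, 2563 and 2167 CPM in control) overlapped between the groups. No listed marker was at 0 in all 4 libraries. The part of these differences in the levels of the cycle enzymes was not tested.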

How the data were processed

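Per the submitters' processing notes, the tools were RSEM 1.2.3, cutadapt 1.3 and CASAVA 1.8.2, on the build GRCm38. The authors deposited expected counts of reads for each gene, made with those tools, in 1 table. Per the labels' protocols, 500 ng of total RNA went into each library, and reads were single and 75 bases long. The annotation and settings were not given in the sources used here. Of the 38293 values in a library, zeros included, 13.9% to 16.9% were more than 1e-09 from a whole number, and all were rounded. GENCODE mouse release 21 supplied symbols and positions and named 36429 of 38293 identifiers.

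Genes passing edgeR's filterByExpr (minimum count 10, minimum total 15) were scaled by TMM, and all 13711 were tested with edgeR 4.0.16 (glmQLFit and glmQLFTest, R 4.3.3), with Benjamini-Hochberg adjustment. CPM values are scaled by TMM. SE, the standard error, is the size of the log2 fold change over the square root of F. The 95% interval uses the test's degrees of freedom, 2 of them residual and 6.14 borrowed from the spread of all genes tested. The fitting steps were tested on simulated counts. BLAST 2.17.0 found no transcript of another gene at 95% identity over 300 bases for any member. Replicates were not duplicates of 1 library, as their chi-square over its degrees of freedom was 12.2 in cKO and 5.54 in control. All 4 embryos were littermates. The p-values and intervals rest on the spread between these embryos for the gene itself, together with that of the other genes tested.

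The members and lists were chosen with earlier results of these data known. The text names all members, every listed gene of the cycle, and from each other pathway list the up to 4 called genes, or else the gene, with the smallest p. It also names the 5 genes nearest to the members' mean profile, outside the lists, with at least 5 CPM and no predicted-gene name. The list of other cycle genes does not cover the whole cycle, and a further gene of it is not reported here. Markers and ratios were named after their values were seen.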

Additional observations from a re-analysis of the deposited data

How the results depend on the processing

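The 9 cycle enzymes had no call under any of 14 alternatives: limma-voom 3.58.1, the test of DESeq2 1.42.0, that tool's size factors, scaling by upper quartile, the replicate block, glmTreat against 1.5-fold, testing without a filter or from 5 CPM up, the deepest library thinned, genes of X and Y dropped (8 enzymes), and each library left out. Their median of 0.139 ran from 0.0588 to 0.221 as libraries were left out, and from 0.122 to 0.16 elsewhere. Signs turned for Cs (-0.0355 and -0.0321; highest 0.0599), Idh2 (-0.0398 and -0.00211; highest 0.238) and Idh3a (-0.0166 and -0.00706; highest 0.0816), each with 1 library left out. With each library left out, genes called over all genes ran from 39 to 141, glycolytic genes from 8 to 13, and genes linked to 2-oxoglutarate or fumarate from 0 to 1. Against a 1.5-fold change 33 genes were called, 4 of them glycolytic. The 9 enzymes could not be called in that setting, as their intervals in the main fit all lay within 1.5-fold. The ratio of highest to lowest level per length was 7.29 with coding lengths. Why they differ was not tested. A group left with 1 library is taken to vary as much as the intact one.

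The replicate block gave 75 calls, and for Idh3b 0.229 with an adjusted p of 0.485; it changed no call among the members. Same-numbered libraries deviated together with a correlation of 0.106 across genes. No label says what a shared number stands for. Summing members with copies was not run, because none had a copy, at 150 bases either.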
